A study of Rattus norvegicus with 9 samples.

Results

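C1ql3 and Luzp2 are the 2 genes described here, out of 14217 genes named by a probe set with a single symbol on the Affymetrix rat expression array used. They were taken up because a probe set of each was lower in the cerebral cortex of rat pups at the highest dietary 4-methylimidazole (4-MeI) concentration. A further reason was that another probe set of each gene differed little. Every probe set whose platform annotation gives only C1ql3 or only Luzp2 was included, which gave 4 of 31042 probe sets, 2 per gene. All 4 passed the filter on dim probe sets that left 21729 for testing. The 2500 ppm against control values chose these genes, so they are given as a description, without a test.

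4-MeI is an imidazole found in caramel colouring and in browned foods. Hsd:Sprague Dawley rats ate a diet with 0 (control), 750 or 2500 ppm of 4-MeI, starting before breeding and going on through successive pregnancies and generations, and cortex of F2b pups was taken on postnatal day 4. Each of the 3 groups had 3 arrays, with 1 pup per litter. Seizures of the dams are part of the study's title, but neither the seizure history of a given dam nor the sex of a pup is labelled. Exposure of the pup and of its dam cannot be told apart. Array medians lay between log2 values of 7.67 and 7.71, and the lowest correlation between 2 arrays was 0.9808. Only 750 ppm replicate 3 correlated more closely with an array of another group (0.9932) than with any of its own (0.9884).

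C1ql3 encodes a secreted protein with a C1q domain, made by subsets of excitatory neurons. In mice it is found at synapses and binds the adhesion receptor encoded by Adgrb3, and the closely related C1ql2 and C1ql3 proteins link presynaptic neurexin 3 to kainate receptors that contain the Grik2 and Grik4 products. Luzp2 encodes a protein with a leucine zipper motif whose transcripts are found in the brain and spinal cord of mice, with glial precursors among the cells that hold them.

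On the GRCr8 assembly C1ql3 lies on the minus strand of chromosome 17, from 81028418 to 81038244, and has 1 annotated transcript. Its last 290 bases overlap the end of Pter, which runs on the opposite strand, and its first 397 bases overlap the end of Rsu1, which runs on the same strand. Luzp2 lies on the plus strand of chromosome 1, from 114733026 to 115119374, has 6 annotated transcripts and overlaps none of the 10 nearest measured genes. The positions are those of the genes. Where in each transcript the probes of each probe set lie was not analysed here.

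The sequence upstream of each start is shown as a description. The falling probe sets of these genes followed each other across the arrays through the step at the highest concentration, which chose the genes. With each group's mean removed their Pearson r was 0.519, and over the 6 arrays without that concentration it was 0.142. Shared regulation was not tested. The sequences are those of RefSeq on GRCr8, written 5′ to 3′ on the strand of the gene, with matches to the motifs searched in capitals. For Luzp2 it is the 250 bases before the first of 6 annotated starts (chr1:114732776-114733025), and for C1ql3, whose upstream region lies inside Rsu1, the 30 bases around its match (chr17:81038257-81038286).
Luzp2: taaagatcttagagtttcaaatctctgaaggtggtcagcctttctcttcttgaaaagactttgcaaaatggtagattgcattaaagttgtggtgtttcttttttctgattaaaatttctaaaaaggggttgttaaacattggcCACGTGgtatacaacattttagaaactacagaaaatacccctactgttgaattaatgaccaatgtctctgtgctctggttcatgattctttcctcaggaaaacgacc
C1ql3: gccttgggttccTATAAAttgctccggcgc
Both strands of the 250 bases before each start were searched for the cyclic AMP response element TGACGTCA, the AP-1 motif TGANTCA, the E-box CACGTG, the TATA box TATAAA and the GC box GGGCGG. C1ql3 held TATAAA, with its first base 30 bases before the start, and none of the others. TATAAA occurs in 12.9% of 33465 rat promoter windows of this length. Luzp2 held CACGTG, its first base 107 bases before the first start, a match found in 5.59% of the windows. The windows of the first 5 Luzp2 starts held that same match, and that of the last start, at 114733761, held GGGCGG on the other strand, as do 30.5% of the windows. No searched motif was found upstream of both genes.

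The 2 probe sets of C1ql3 parted at 2500 ppm. Probe set 1378362_at had log2 intensities of 10.34, 10.26 and 10.29 in the control cortices. It had 10.38, 10.53 and 10.46 in the 750 ppm cortices and 9.05, 8.64 and 8.95 in the 2500 ppm cortices. Each 2500 ppm array was thus more than 1 log2 unit below each of the other 6, and the 750 ppm arrays were all above the controls, as was the case for 7.61% of probe sets. The group means were 10.30 ± 0.038 in control, 10.46 ± 0.071 at 750 ppm and 8.88 ± 0.22 at 2500 ppm (SD, n = 3 each). The 2500 ppm mean was -1.42 from control on the log2 scale, a 2.67-fold lower intensity, and -1.58 from 750 ppm. In bulk tissue, fewer cells of a type and less RNA per cell cannot be told apart.

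C1ql3 on probe set 1375500_at was dimmer, at the 46.6th percentile of mean intensity, against the 78.9th for 1378362_at. It read 7.43, 7.30 and 7.43 in control, 7.35, 7.39 and 7.48 at 750 ppm, and 7.53, 7.43 and 7.57 at 2500 ppm. Here the 2500 ppm arrays stood at or above the controls, with a difference of 0.12. The filter on dim probe sets lay at a mean of 6.35.

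**Figure D1:**
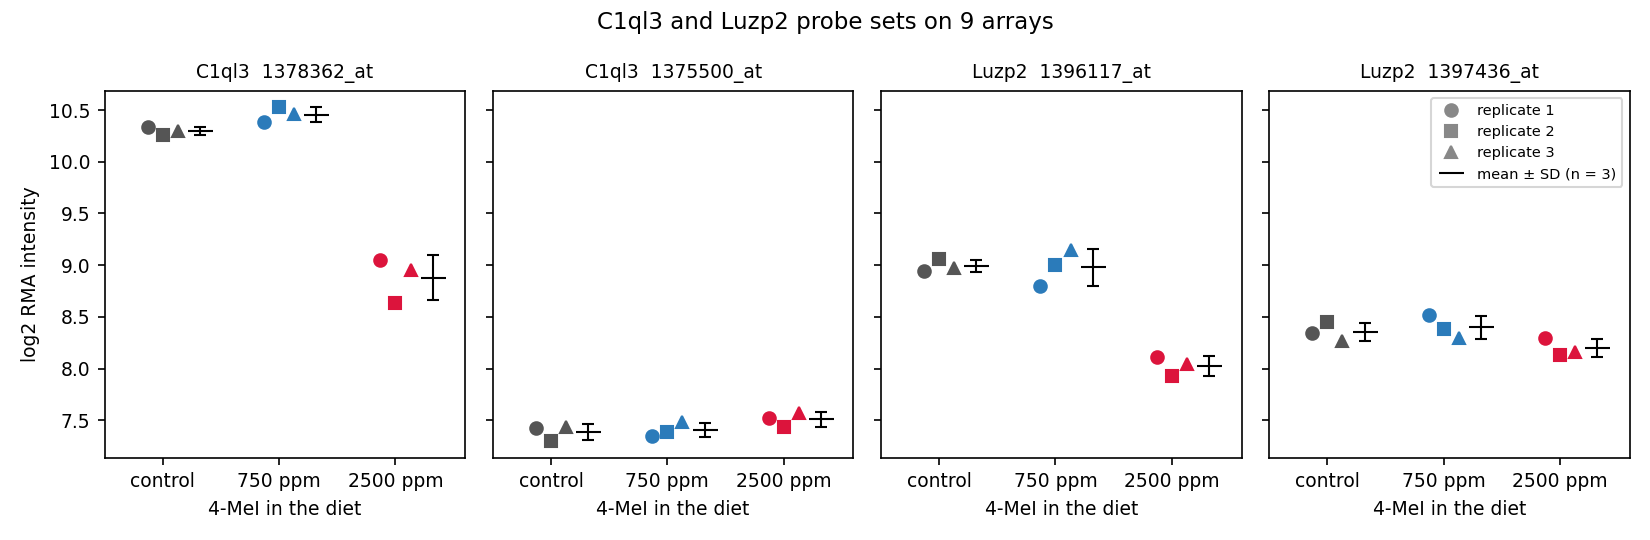
Log2 RMA intensity of the 4 probe sets of C1ql3 and Luzp2 (y axis) in each dietary group (x axis), 1 point per array, with the mean and SD of 3 arrays beside the points. On 1378362_at and 1396117_at the 3 arrays at 2500 ppm lie below all 6 others, while the group means differ by at most 0.12 on 1375500_at and 0.20 on 1397436_at.

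The 2 probe sets of Luzp2 also parted at 2500 ppm, by less than those of C1ql3, and both leaned lower. Probe set 1396117_at had log2 intensities of 8.94, 9.06 and 8.97 in control, 8.80, 9.002 and 9.15 at 750 ppm, and 8.11, 7.93 and 8.04 at 2500 ppm. The 2500 ppm arrays again lay below all others, and the 750 ppm arrays spanned the controls on both sides. Means were 8.99 ± 0.061 in control, 8.98 ± 0.18 at 750 ppm and 8.03 ± 0.092 at 2500 ppm (SD, n = 3 each). The 2500 ppm mean was -0.97 from control, a 1.95-fold lower intensity, and -0.96 from 750 ppm.

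Luzp2 on probe set 1397436_at read 8.35, 8.45 and 8.27 in control, 8.51, 8.39 and 8.30 at 750 ppm, and 8.30, 8.13 and 8.16 at 2500 ppm. Its 2500 ppm arrays were in the lower part of the range and overlapped the other groups through replicate 1. The 2500 ppm mean was -0.16 from control and -0.20 from 750 ppm. This probe set therefore leaned the same way as 1396117_at, whereas the dimmer C1ql3 probe set leaned the opposite way to its partner.

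Of the 4 probe sets, 2 passed an adjusted p under 0.05 at 2500 ppm against control and 2 did not. Over the whole array 0.405% of probe sets passed lower in that comparison, and in 13.4% the 2500 ppm arrays all lay below the controls. Against 750 ppm, 9.52% had all 2500 ppm arrays lower. Since the genes were chosen from this contrast, nothing is read from that count.

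The comparison of 750 ppm with control did not choose the genes, although it shares the control arrays with the one that did. It asks whether the lower concentration moved the same probe sets. In limma none of the 4 passed, beside 0.00920% of all probe sets tested. C1ql3 on 1378362_at differed by 0.16 (95% interval -0.068 to 0.38, adjusted p = 0.599) and on 1375500_at by 0.019 (-0.13 to 0.17, adjusted p = 0.939). Luzp2 on 1396117_at differed by -0.0097 (-0.22 to 0.20, adjusted p = 0.982) and on 1397436_at by 0.046 (-0.13 to 0.22, adjusted p = 0.860). For the falling probe sets, the lower ends of these intervals, -0.068 and -0.22, are far from the differences of -1.42 and -0.97 at 2500 ppm. The difference at 2500 ppm against 750 ppm rests on the 2500 ppm arrays that chose the genes and is given above without a test.

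The gap between the probe sets of a gene was then followed array by array. Probe sets differ in affinity, so the gap itself is no ratio of transcripts, and its change between groups is what can be compared. For C1ql3, 1378362_at minus 1375500_at was 2.91, 2.96 and 2.86 in control, 3.03, 3.14 and 2.98 at 750 ppm, and 1.53, 1.201 and 1.38 at 2500 ppm. For Luzp2, 1396117_at minus 1397436_at was 0.60, 0.61 and 0.70 in control, 0.28, 0.61 and 0.85 at 750 ppm, and -0.19, -0.21 and -0.12 at 2500 ppm. The gap narrowed on every 2500 ppm array for C1ql3, by 1.54 on average against control, and for Luzp2 it changed sign, with an average change of -0.81.

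**Figure D2:**
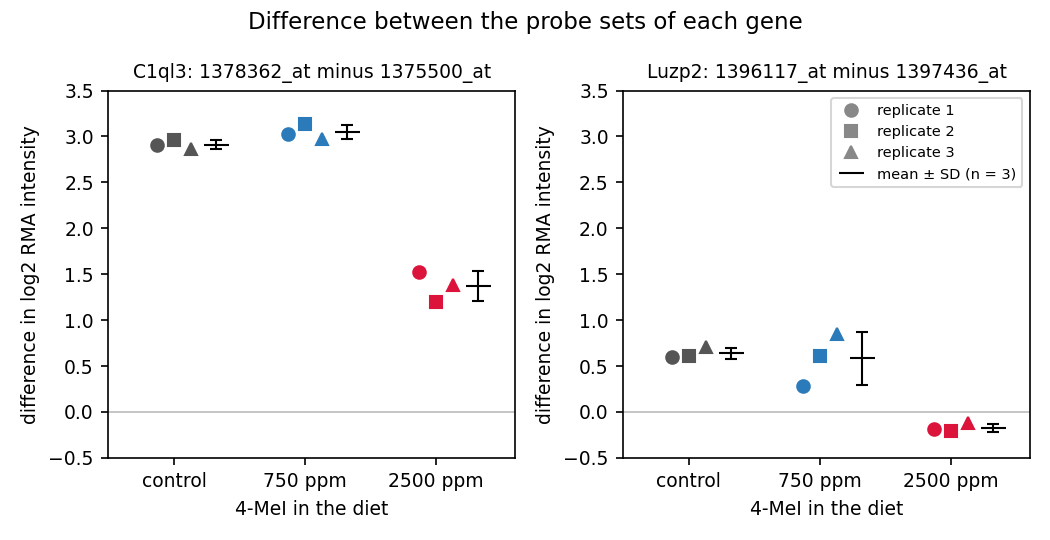
Difference in log2 RMA intensity between the 2 probe sets of C1ql3 (left) and of Luzp2 (right) on each array (points), by dietary group, with mean and SD of 3 arrays. The C1ql3 gap is between 2.86 and 3.14 in control and 750 ppm arrays and between 1.201 and 1.53 at 2500 ppm, and the Luzp2 gap is below 0 only at 2500 ppm.

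Disagreement of this size was rare among probe sets that share a symbol, a comparison chosen after the values were seen. The genes were taken up with their disagreement known, so their ranks below describe that choice and are no support for it. Among tested probe sets, 3340 genes had 2 or more, making 6210 pairs within genes. The median pair differed by 0.094 in its 2500 ppm minus control value, and 95% of pairs differed by less than 0.37. The C1ql3 pair, at 1.54, had the second largest difference after a pair of Eeig2 at 2.73, and the Luzp2 pair ranked 16th at 0.81. Partial agreement as such was common. Of the 42 genes with a called probe set and at least 1 more tested, 40 had a probe set that was not called.

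**Figure D3:**
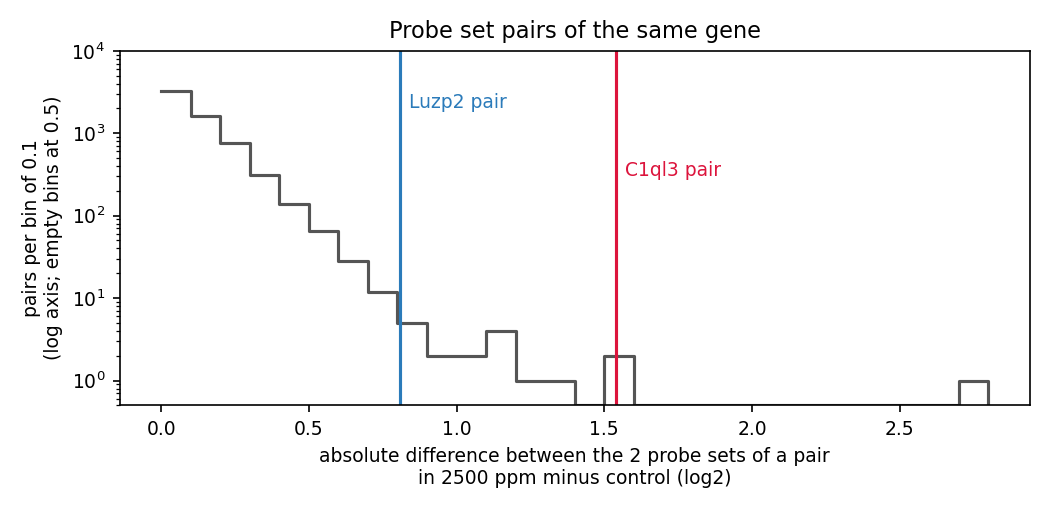
Number of probe set pairs of the same gene (y axis, log scale) by the absolute difference between the 2 probe sets in their 2500 ppm minus control value (x axis, log2 units, bins of 0.1). Most of the 6210 pairs lie near 0, with the Luzp2 pair at 0.81 and the C1ql3 pair at 1.54 marked in the sparse tail.

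Across the 9 arrays, the falling probe sets of C1ql3 and Luzp2 were each other's closest match among the named probe sets tested. Their Pearson r was 0.978, with a Spearman rho of 0.733. All points share the array's processing and the step between 2500 ppm and the other groups, so these values are a description. With each group's mean removed the r was 0.519, and over the 6 control and 750 ppm arrays it was 0.142. The close match thus lay in the step at 2500 ppm. The probe sets of the same gene were less alike, with an r of -0.587 for C1ql3 and 0.674 for Luzp2, against a median of 0.470 over all pairs within genes.

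Of the other 21728 probe sets tested, 57 had an r of at least 0.9 with 1378362_at of C1ql3 and 63 with 1396117_at of Luzp2, and 37 of them were in both sets. The median r over all probe sets was -0.015 and -0.020. A profile of 2500 ppm against the other 6 arrays alone had an r of -0.984 with C1ql3 and -0.977 with Luzp2, so a high r marks chiefly probe sets that drop at 2500 ppm with little spread.

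After Luzp2, the probe sets most like C1ql3 were those of Pacsin1 (r = 0.956), which acts in endocytosis of synaptic vesicles, Eri2 (0.955) and Rims2 (0.951), a scaffold of the presynaptic active zone. Spats2l (0.947), Ppp4r3b (0.941) and Ppp6r1 (0.939), the last 2 of them regulatory subunits of protein phosphatases, followed. The list ended with the flippase subunit gene Tmem30a (0.939), the zinc finger gene Zfp423 (0.938) and the phosphofructokinase gene Pfkp (0.936). Their 2500 ppm minus control differences ranged from -0.10 for Ppp6r1 to -0.61 for Pacsin1, all smaller than that of C1ql3. Rims2 averaged 8.10 at 2500 ppm and 8.62 in control, a difference of -0.53.

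After C1ql3, the probe sets most like Luzp2 were those of Wac (r = 0.961), Vstm2a (0.958), Prpf4b (0.958), a kinase of splicing factors, and Zfp423 (0.956). Ppp4r3b (0.955), Ppp6r1 (0.943), the polarity gene Pals1 (0.943), Ttc1 (0.939) and Rims2 (0.938) completed the 10. Zfp423, Rims2, Ppp4r3b and Ppp6r1 were on both lists. Prpf4b averaged 8.26 at 2500 ppm and 8.88 in control, and Zfp423 10.06 and 10.63.

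Within groups the likeness was weaker and differed among these probe sets. With group means removed, r ranged from -0.26 to 0.64 over the 10 of C1ql3 and from 0.074 to 0.73 over the 10 of Luzp2, where it was above 0.5 for Wac, Prpf4b, Pals1, Ttc1 and C1ql3. Spearman's rho over the 9 arrays ranged from 0.617 to 0.883 and from 0.683 to 0.933. The probe sets closest by deviations alone were Ptprv, Akirin1, Ranbp1, Mark4 and Ttpa for C1ql3 (r from 0.929 to 0.968), and Cnnm1, the orexin gene Hcrt, Prkcb, Yy1 and Mtss1 for Luzp2 (0.959 to 0.982). None of these 10 was among the lists above, and over the 9 arrays their r ran from -0.443 for Mark4 to 0.613 for Akirin1.

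**Figure D4:**
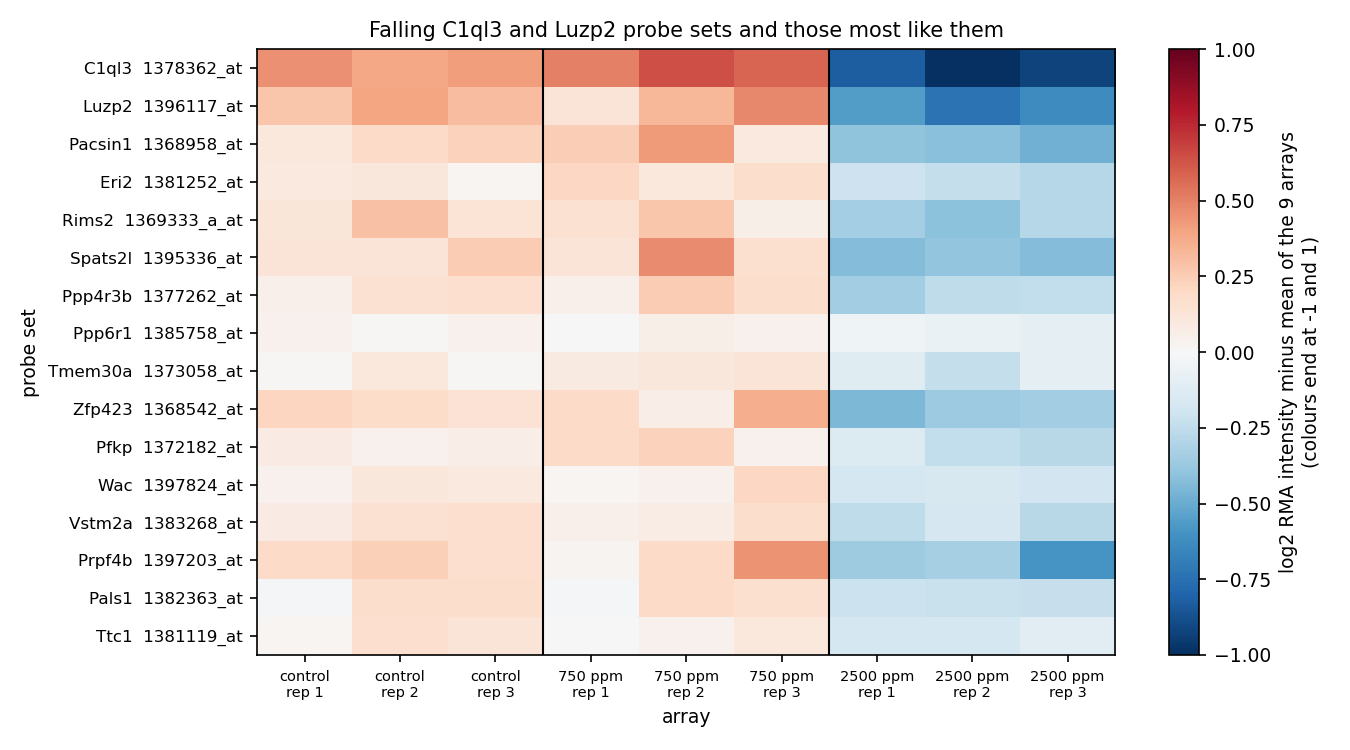
Log2 RMA intensity relative to the mean of 9 arrays (colour, ending at -1 and 1) for the falling probe sets of C1ql3 and Luzp2 and the 14 others most like either (rows), on each array (columns). All rows are lower at 2500 ppm, and the top 2 rows hold the strongest colours.

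Opposite profiles were led by Ncln, which encodes a membrane protein of the endoplasmic reticulum, with an r of -0.971 with C1ql3 and -0.987 with Luzp2. It was 0.11 higher at 2500 ppm than in control. Epb41, a gene of the membrane skeleton, had -0.971 and -0.957 with a difference of 0.28. Rtn4rl1 (-0.967), Prps2 (-0.963) and Ube2ql1 (-0.962) followed for C1ql3, and Tap2 (-0.972), Pdzrn3 (-0.959) and the small heat shock protein gene Cryab (-0.955) for Luzp2. Of these, Pdzrn3 had the largest difference, 0.49.

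The partners of C1ql3 at the synapse were described next. Of the C1q-like, cerebellin, neurexin, kainate receptor and related genes listed, 18 had a probe set, and 20 of their 26 probe sets, from 17 genes, passed the filter. In limma 0 of 20 passed at 2500 ppm against control, beside 0.686% of all probe sets, and 2 of 20 had an unadjusted p under 0.05, beside 16.0% of all probe sets. The list's median was -0.0024, against 0.0070 for all probe sets. At 750 ppm against control 0 of 20 passed and 1 had an unadjusted p under 0.05, beside 10.1% of all. The median there was -0.036, against 0.0023. At 2500 ppm against 750 ppm 0 of 20 passed, beside 0.322%, and 4 had an unadjusted p under 0.05, beside 12.6% of all. The mean of 17 of these genes on each array, relative to the average of all arrays, was 0.026, 0.054 and 0.092 in control, 0.044, 0.058 and -0.10 at 750 ppm, and -0.059, -0.044 and -0.071 at 2500 ppm. It was thus slightly below the controls on each 2500 ppm array and lowest in 750 ppm replicate 3.

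Grik2, which encodes the kainate receptor subunit GluK2, came closest. It had 9.78, 9.76 and 10.15 in control, 10.16, 10.07 and 9.57 at 750 ppm, and 8.82, 9.17 and 8.98 at 2500 ppm. The 2500 ppm arrays lay below all others. Over all probe sets, 13.4% had every 2500 ppm array below the controls and 9.52% had every one below the 750 ppm arrays. The difference from control was -0.91 (SE 0.17, adjusted p = 0.0553 in limma), and over the alternatives the adjusted p ran from 0.005 to 0.167, with 4 of 17 under the threshold. These 4 were trend and robust variances (0.041), array weights (0.005), a fit of the 2 groups alone (0.0249) and the fit without 750 ppm replicate 3 (0.0152).

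Grik4, the gene of another kainate receptor subunit, differed by -0.12 (adjusted p = 0.332). Nptx1, a neuronal pentraxin of excitatory synapses, differed by -0.51 (SE 0.16, adjusted p = 0.180), with 10.68, 10.42 and 10.43 at 2500 ppm and 10.84, 10.92 and 11.28 in control. Adgrb3, the receptor gene, was at 12.17, 12.18 and 12.17 at 2500 ppm and 12.22, 12.25 and 12.31 in control, a difference of -0.09 with an adjusted p of 0.474. Nrxn3 differed by -0.41 (adjusted p = 0.360). C1ql1, the other C1q-like gene measured, stood at 7.60, 7.74 and 7.75 at 2500 ppm and 7.72, 7.63 and 7.63 in control. At 750 ppm it read 7.45, 7.41 and 7.40, which was -0.24 from control (adjusted p = 0.246), and 2500 ppm was 0.28 above 750 ppm (adjusted p = 0.122).

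Other proteins with a C1q domain are components of complement or hormone-like C1q and TNF related proteins. Their genes were listed together with C1qbp, the gene of a C1q binding protein that belongs to neither family. Of the 14 tested probe sets of this list, from 10 genes, 0 passed in any of the 3 comparisons in limma. An unadjusted p under 0.05 was seen in 3 for 750 ppm against control, 3 for 2500 ppm against control and 1 for 2500 ppm against 750 ppm, where 10.1%, 16.0% and 12.6% of all probe sets had one. The complement gene C1qc was 0.32 higher at 2500 ppm than in control (adjusted p = 0.184) and 0.46 higher at 750 ppm (adjusted p = 0.201). C1qb was 0.32 higher at 750 ppm (adjusted p = 0.263), C1qtnf2 0.52 higher (adjusted p = 0.442), and C1qtnf5 0.20 higher at 2500 ppm than in control (adjusted p = 0.179).

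Genes of oligodendrocyte precursors and radial glia, listed beside Luzp2 together with the leucine zipper gene Luzp1, also gave 0 calls among 21 tested probe sets from 14 genes in each comparison. In each, 2 of 21 had an unadjusted p under 0.05, beside the same 10.1%, 16.0% and 12.6% of all probe sets. Luzp1 differed by 0.07 at 2500 ppm against control (adjusted p = 0.736). Sox10, a transcription factor of the oligodendrocyte lineage, had 7.94, 7.73 and 7.92 at 750 ppm and 8.34, 8.15 and 8.41 in control, a difference of -0.43 (adjusted p = 0.228), while at 2500 ppm it differed by -0.032. Slc1a3, an astroglial glutamate transporter, differed at 2500 ppm against control by -0.22 on 1388064_a_at (adjusted p = 0.310). Its brighter probe set 1368565_at differed by -0.033 and 1371130_at by 4.0e-05. Sox2 differed by -0.36 on 1381874_at (adjusted p = 0.346), by -0.32 on 1375153_at and by -0.21 on 1379942_at at 2500 ppm. Vim, the gene of the intermediate filament vimentin, was 0.59 higher at 2500 ppm (adjusted p = 0.134), with control replicate 3 the lowest array at 11.15.

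**Figure D5:**
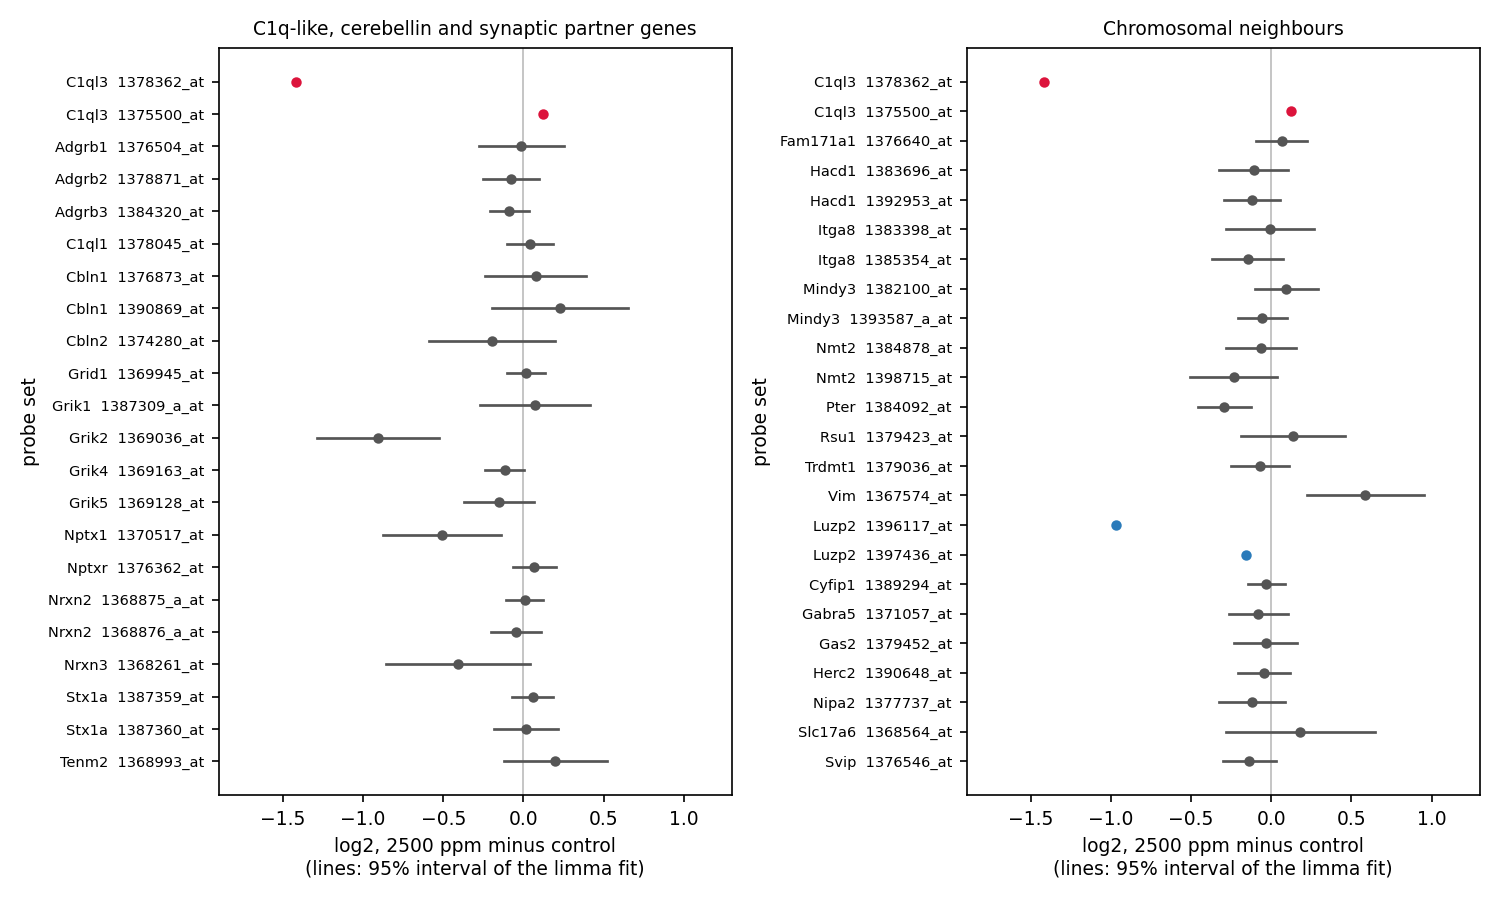
Log2 difference, 2500 ppm minus control, of each tested probe set of the synaptic partner list (left) and of the chromosomal neighbours (right), as points with 95% intervals of the limma fit. C1ql3 (both panels) and Luzp2 (right) are in colour without an interval. The falling C1ql3 probe set at -1.42 lies left of all other points, followed by that of Luzp2 at -0.97 and by Grik2 at -0.91.

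The 5 measured genes on each side of C1ql3 and of Luzp2 were described because C1ql3 overlaps its neighbours. In limma 0 of their 20 tested probe sets, from 16 genes, passed in any comparison, beside 0.00920% of all probe sets for 750 ppm against control, 0.686% for 2500 ppm against control and 0.322% for 2500 ppm against 750 ppm. At an unadjusted p under 0.05 there were 3, 2 and 1 of 20 in the same order, beside 10.1%, 16.0% and 12.6% of all. Pter, whose end overlaps that of C1ql3 on the other strand, had 6.50, 6.44 and 6.47 at 2500 ppm and 6.89, 6.68 and 6.72 in control. It differed by -0.29 (SE 0.072, adjusted p = 0.101, and 0.0106 with array weights), and its 3 arrays at 2500 ppm were below all others. The shares of all probe sets with these arrays below the controls and below the 750 ppm arrays were 13.4% and 9.52%. Rsu1, which overlaps the start of C1ql3, differed by 0.14 (adjusted p = 0.674).

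Elsewhere around C1ql3, Nmt2, Fam171a1, Itga8, Mindy3, Trdmt1 and Hacd1 differed by -0.23 to 0.09 at 2500 ppm against control, and Vim, also a neighbour, is given above. Around Luzp2, the probe sets of Cyfip1, Gabra5, Gas2, Herc2, Nipa2 and Svip differed by -0.14 to -0.03 and that of Slc17a6 by 0.18. The probe sets of Cubn, Ano5, Ccdc179 and Gabrg3 were under the filter.

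Markers of neighbouring tissue varied across the same arrays. The mean of 6 choroid plexus genes, relative to the average of all arrays, was -0.73, -0.86 and -0.75 in control, -0.45, -0.27 and -0.59 at 750 ppm, and 1.74, 1.60 and 0.31 at 2500 ppm. As a group, the 2500 ppm arrays had the highest choroid plexus means and the lowest values of the falling probe sets. The r over the arrays was -0.885 with C1ql3 and -0.894 with Luzp2, and it includes the step that chose the genes. The part of choroid plexus tissue in their fall was not tested. Within the 2500 ppm group, replicate 1 had the highest choroid plexus mean and also the highest C1ql3 (9.05) and Luzp2 (8.11) values. Replicate 3 had the lowest choroid plexus mean by far, with C1ql3 at 8.95 and Luzp2 at 8.04, between the values of the other 2 arrays. The mean of 12 striatal genes was -1.001, -0.059 and -0.61 at 2500 ppm and 0.72, 0.29 and 0.46 in control. It was also low in 750 ppm replicate 3, at -0.92, against 0.60 and 0.52 in the other 750 ppm arrays. That array had 10.46 for the falling C1ql3 probe set and 9.15 for that of Luzp2, both above all controls.

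Markers of the labelled tissue were present on all arrays. The mean of 11 genes of cortical excitatory neurons ranged from 10.54 to 10.66 in control, from 10.41 to 10.57 at 750 ppm and from 10.45 to 10.69 at 2500 ppm. This mean hid members that moved in opposite directions. At 2500 ppm against control, 8 of 17 tested probe sets had an unadjusted p under 0.05 in limma, 3 higher and 5 lower. Of all probe sets, 16.0% had one, and 0 of the 17 passed. Bcl11b on 1391948_at and Foxp2 differed by -0.84 each, Emx1 by 0.58 and Cux2 on 1390622_at by 0.38. Bcl11b and Foxp2 were also low on 750 ppm replicate 3, where the striatal mean was low. Bcl11b read 11.5 there, against 12.2 and 12.5 on the other 750 ppm arrays, and Foxp2 10.4, against 11.7 on each. Against 750 ppm only Emx1 passed, at 0.76 (adjusted p = 0.0306 in limma). Oligodendrocyte precursor genes, 4 measured, ranged relative to the average from -0.16 to 0.093 in control, from -0.18 to -0.013 at 750 ppm and from 0.016 to 0.21 at 2500 ppm. Interneuron genes, 5 measured, ranged from 0.093 to 0.41 in control, from -0.57 in replicate 3 to 0.39 at 750 ppm and from -0.37 to -0.19 at 2500 ppm. Meningeal genes, 11 measured, ranged from -1.31 to -0.14 in control, from 0.38 to 0.62 at 750 ppm and from -0.020 to 0.44 at 2500 ppm. The highest value was thus at 750 ppm, where the falling probe sets of C1ql3 and Luzp2 differed from control by 0.16 and -0.0097. The part of these lists in the fall of C1ql3 and Luzp2 was not tested.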

How the data were processed

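Cortex of 9 rat pups was profiled on 1 array each. The deposited values are log2 intensities, 1 per probe set and array, made by robust multi-array averaging (RMA) in the affy package, per the submitters' processing notes, whose versions are not given in the sources used here. RMA corrects background, quantile-normalizes and summarises probes, so a change in total RNA is not seen, and it leaves no detection call. The number of arrays limits the precision.

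Of 31099 probe sets, 57 AFFX controls and the 30% of the rest with the lowest mean (9313, under 6.35) were set aside. The remaining 21729 probe sets were fitted on all 9 arrays, with a mean for each group, in limma 3.58.1 (R 4.3.3), two-sided, with Benjamini-Hochberg adjustment within each comparison and a threshold of 0.05. An exact permutation test of 3 against 3 arrays cannot go below 0.1. Correlations, gaps and motifs were computed in Python 3.11.15. Symbols came from the platform annotation, where 20826 probe sets have 1 symbol, 436 several and 9780 none, updated for 20758 through the Entrez identifier to GRCr8. The fit was tested on simulated data for 2500 ppm against control. It recovered 85 of 100 changes of 2-fold and 80 of 100 of 1.5-fold, and called 6 unchanged probe sets.

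The members and lists were chosen with earlier results of these data known. Named were the 4 probe sets, for each falling one (below -0.5 at 2500 ppm against control) the 10 highest and 5 lowest r and the 5 highest r of deviations, up to 4 genes per list by smallest p, and all neighbours. Adgrb3, Nrxn3 and Luzp1 were named after their values were seen. The comparison of 2500 ppm with 750 ppm was planned as a test and is given as a description for the 4 probe sets, because it shares the arrays that chose them. Alternatives were other filters, scalings, variance models, array weights, a replicate block, fits of only the groups compared and leaving out each array.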

Additional observations from a re-analysis of the deposited data

How the results depend on the processing

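Under every alternative the falling probe sets stayed close to their values, at -1.50 to -1.30 for C1ql3 and -1.01 to -0.92 for Luzp2 at 2500 ppm against control when each array was left out in turn. At 750 ppm against control no C1ql3 or Luzp2 probe set was called under any alternative (1375500_at was not tested with the lowest 50% left out), and 3 near 0 changed sign: C1ql3 on 1375500_at to -0.026 with array weights, -0.025 without control replicate 2 and -0.018 without 750 ppm replicate 3; Luzp2 on 1396117_at to 0.025 without control replicate 2 and 0.084 without 750 ppm replicate 1; and Luzp2 on 1397436_at to -0.012 without 750 ppm replicate 1. Leaving out 1 array gave -0.025 to 0.046, -0.094 to 0.084 and -0.012 to 0.097 for these.

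The counts of probe sets called were 2, 149 and 70 for 750 ppm against control, 2500 ppm against control and 2500 ppm against 750 ppm. Array weights gave 340, 1495 and 721, and fitting only the groups compared gave 1, 481 and 14. Leaving out 1 array gave 0 to 48, 9 to 466 and 13 to 731. For 2500 ppm against control, omitting control replicate 2 left 14 calls and omitting control replicate 3 left 32. Omitting 750 ppm replicate 2 gave 234 and omitting 750 ppm replicate 3 gave 466, while the 2500 ppm arrays omitted in turn left 25, 9 and 57. For 2500 ppm against 750 ppm, control replicates 1 and 2 omitted singly left 39 and 32. There the 750 ppm arrays omitted in turn gave 13, 30 and 731, and the 2500 ppm arrays 17, 20 and 36. For 750 ppm against control, omission of control replicate 1 gave 44, of 750 ppm replicate 2 gave 8 and of 750 ppm replicate 3 gave 48, and any other array 0 or 1. At 2500 ppm against control 61 were higher and 88 lower, and 74 and 71 after a second quantile normalization. At 750 ppm the split was 0 higher and 2 lower, and 1 and 2 after it. The replicate numbers are not stated to pair the pups, and deviations of same-numbered arrays correlated between -0.209 and 0.312. With the replicate number as a block, 36 probe sets passed at 2500 ppm against 750 ppm.

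Synaptic partner calls, 0 as reported, were 1 with trend and robust variances, 1 with array weights and 1 with only the groups compared at 2500 ppm against control, and 0 to 2 with 1 array left out, the 2 without 750 ppm replicate 3. At 2500 ppm against 750 ppm they were 1 with trend and robust variances, 2 with array weights and 0 to 2 with 1 array left out, and at 750 ppm against control 1 with array weights. Array weights also gave 2 and 1 calls of other C1q-domain probe sets (750 ppm against control, and 2500 ppm against 750 ppm), 1 glial and 1 neighbour call at 750 ppm, and 1 neighbour call at 2500 ppm against control. The causes were not tested.

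Of the 10 probe sets most like each falling one, 0 remained by Spearman's rho and 0 by deviations from group means, for C1ql3 and for Luzp2. Without 1 array, 2 to 7 remained for C1ql3, fewest without 750 ppm replicate 3, and 3 to 9 for Luzp2, fewest without 750 ppm replicates 1 and 3.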
